A study of Mus musculus with 6 samples.

Results

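The collagen chains were taken as every gene of the array table whose symbol reads Col, a number, the letter a and a number. This rule found 43 chains among 23152 genes, and none was lost to a filter on low values because none was applied. They were measured by 1226 exon level probe sets, between 4 and 55 for a chain with a median of 28. The chain Col26a1 is listed under its older symbol Emid2 and so falls outside the rule; its log2 difference between the genotypes was -0.10 (adjusted p = 0.70).

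Collagens are made of 3 alpha chains wound into a triple helix, and the chains are encoded by separate genes. Fibrillar collagens such as types I and III form the fibres of connective tissue, collagen IV forms the sheet-like network of basement membranes, and collagen VI forms beaded microfibrils beside them. In the testis, the basement membrane around each seminiferous tubule is laid down by Sertoli cells and peritubular myoid cells, and fibrillar collagens lie outside it in the tubule wall and the interstitium. Collagen IV chains reach the cell surface as defined trimers, of which the trimer with alpha3, alpha4 and alpha5 is known from the kidney glomerulus and is also present in the testis.

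The arrays compared testis germ cell preparations of mice of the FVB strain at 23 dpp. Control mice carried floxed Mgat1 alleles (Mgat1[F/F]), and Mgat1 cKO mice carried the same alleles with iCre driven by the Stra8 promoter (Mgat1[F/F]:Stra8-iCre), which acts in spermatogonia. Mgat1 encodes the enzyme that starts the synthesis of complex and hybrid N-glycans. There were 3 control and 3 Mgat1 cKO arrays, but the 3 arrays of a genotype held aliquots of 1 RNA pool from 6 mice. The p-values therefore measure the spread between aliquots of a pool, and genotype and pool cannot be told apart. The cells were released from the testis with collagenase and DNase and then with trypsin and DNase, so the preparations were exposed to an enzyme that digests collagen protein before RNA was taken.

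Values are log2 intensities normalized by RMA, a chain's value is the mean of its probe sets, and differences are Mgat1 cKO minus control on that log2 scale. A chain was said to rise or fall when its Benjamini-Hochberg adjusted p in limma, taken over all genes, was under 0.05. Log2 intensities have no true zero, so a low value does not show that a gene was silent. The level of a gene also reflects how well its probes bind, so levels of different genes are not ranked. In these bulk preparations, fewer cells of a type and less RNA per cell cannot be told apart. Across all genes, arrays correlated at r = 0.996 within control, at 0.994 to 0.995 within Mgat1 cKO and at 0.979 to 0.980 between genotypes. The 12 probe sets of Mgat1 averaged 6.17, 6.44 and 6.33 in control and 6.35, 6.10 and 6.45 in Mgat1 cKO, with overlapping groups. Which of them probe the deleted sequence is not given, so this comparison does not check the labels.

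The preparations also carried RNA of genes that mark somatic cells, as given by lists for peritubular myoid, stromal, Leydig, Sertoli, endothelial and macrophage cells. The mean level of these 48 markers was 7.59 to 7.61 in the control arrays and 7.44 to 7.49 in the Mgat1 cKO arrays. Of them, 10 fell (Myh11, Pdgfra, Igf1, Cyp17a1, Hsd3b6, Star, Fshr, Csf1r, Cd68 and C1qb) and Actg2 rose, with a median difference of -0.15. These are 20.8% lower and 2.08% higher, against 2.35% and 6.07% of all genes. No endothelial marker passed, and the largest difference in that list was that of Emcn (-0.34, adjusted p = 0.068). The 14 markers of spermatogonia and spermatocytes moved by a like amount, from 8.61 to 8.62 in control to 8.44 to 8.49 in Mgat1 cKO with a median difference of -0.16, and none of them passed the test in limma (5 had an unadjusted p under 0.05, and 1 passed by the analysis of variance of the methods). The largest difference was that of Sall4 among the spermatogonia markers (-0.25, adjusted p = 0.059) and of Sycp3 among the spermatocyte markers (-0.29, adjusted p = 0.11). All 7 spermatid markers (Tnp1, Tnp2, Prm1, Prm2, Acrv1, Dbil5 and Spaca1) rose, with a median of +2.22. Collagen values after scaling each array to these markers, an alternative chosen after the data were seen, are given beside the results.

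Of the 43 collagen chains, 6 fell (14%, against 2.35% of all genes) and 1 rose (2.33%, against 6.07% of all genes) in Mgat1 cKO. The chains are means of more probe sets (median 28) than all genes (median 8), so these shares are not like for like. How far the number of probe sets changes them was not tested. The falls were in Col1a1, Col1a2, Col5a2, Col4a3, Col4a4 and Col6a2, and the rise was in Col22a1. None of the 7 differences reached 1.5-fold, and the share of all genes at that limit was not counted. No chain therefore passed with over 2-fold, whereas 2.57% of all genes did. The median difference of the 43 chains was -0.11, against -0.05 for all genes, but it was +0.04 when each array was scaled to its spermatogonia and spermatocyte markers and +0.03 when scaled to its somatic markers. Relative to the median of all genes, which such a scaling moves by the same amount, 31 chains lay below (72.1%). In 14 chains the highest Mgat1 cKO array was below the lowest control array, a pattern that 20.1% of all genes showed. In 2 chains (Col22a1 and Col2a1) the lowest Mgat1 cKO array was above the highest control array, as in 11.2% of all genes. With any 1 of the 6 arrays left out, 1 to 2 chains passed, and Col1a1 was among them each time. Over all genes, 181 to 324 were then lower and 1148 to 1228 higher, against 543 and 1405 with all arrays. With the median of a chain's probe sets in place of the mean, 0 chains passed in limma, and 12 had an unadjusted p under 0.05. That setting called 135 of all genes lower and 991 higher, against 543 and 1405 with the mean.

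**Figure D1:**
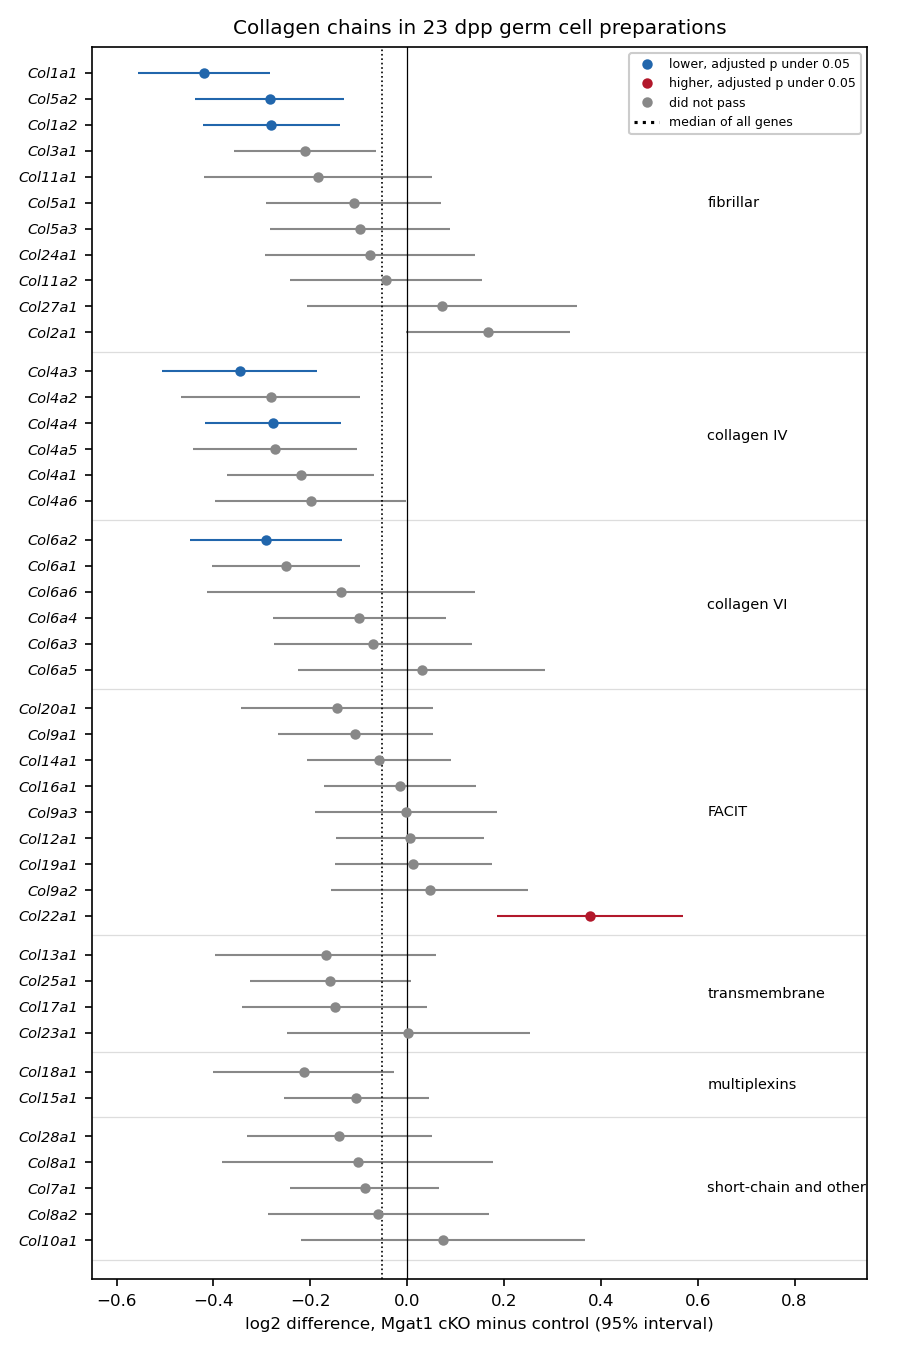
Log2 difference (Mgat1 cKO minus control, 3 arrays each) of the 43 collagen chains with its 95% interval, by structural class. Blue chains fell and the red chain rose, and all 6 collagen IV chains lie left of the median of all genes (dotted, -0.05). Scaling the arrays to their spermatogonia and spermatocyte markers would move every point right by 0.14.

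Among the fibrillar collagens, 3 of 11 chains fell and none rose (2.35% and 6.07% of all genes did so). Col1a1 and Col1a2, which encode the chains of collagen I, the main fibre of connective tissue, fell together. Col1a1 measured 9.18, 9.12 and 9.19 in the control arrays and 8.74, 8.78 and 8.72 in the Mgat1 cKO arrays. The groups were separated by far more than their spread, and the difference of -0.42 (SE 0.059, adjusted p = 0.0028) left 74.8% of the control level. Col1a2 measured 8.72, 8.77 and 8.73 in control and 8.40, 8.47 and 8.51 in Mgat1 cKO. Its groups did not overlap either, with a difference of -0.28 (SE 0.061, adjusted p = 0.028) and 82.3% of the control level. Col1a1 was the only one of the 7 chains to pass the test in every fit with 1 array left out (-0.44 to -0.41). It also passed when the arrays were scaled to the germ cell markers (-0.28, adjusted p = 0.027) or to the somatic markers (-0.29, adjusted p = 0.020), while Col1a2 passed under neither (adjusted p = 0.21 and 0.22).

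The third fibrillar chain that fell was Col5a2, a chain of collagen V, which is built into collagen I fibrils and controls their width. It measured 5.86, 5.85 and 5.76 in control and 5.60, 5.56 and 5.46 in Mgat1 cKO, so that the groups did not overlap (difference -0.28, SE 0.067, adjusted p = 0.039). This call was lost in 13 of 17 alternatives, among them the scaling to germ cell markers (-0.14, adjusted p = 0.24), the scaling to somatic markers (-0.15, adjusted p = 0.20) and each fit with 1 array left out. The 17 include the difference between group medians, which kept the p-value of the main fit and so could not lose the call. Without dim probe sets, those with a mean below the median of all probe sets, the difference was -0.17 (adjusted p = 0.20). Its neighbour on the chromosome, Col3a1, encodes the chain of collagen III, a fibre of soft and elastic tissues. Col3a1 measured 8.77, 8.85 and 8.89 in control and 8.57, 8.65 and 8.66 in Mgat1 cKO, a difference of -0.21 that did not pass the test (adjusted p = 0.090) although the groups did not overlap. It passed with an intensity trend in limma (adjusted p = 0.017) and without dim probe sets (-0.25, adjusted p = 0.019). Col2a1, the chain of cartilage collagen II, differed the other way. It measured 6.86, 6.67 and 6.88 in control and 6.99, 6.95 and 6.97 in Mgat1 cKO, a difference of +0.17 that did not pass (adjusted p = 0.22). Col2a1 passed when arrays were scaled to the germ cell markers (+0.31, adjusted p = 0.036) or the somatic markers (+0.30, adjusted p = 0.045). The other 6 fibrillar chains differed by -0.18 (Col11a1) to +0.07 (Col27a1) with overlapping groups. The median of the 11 chains was -0.11, and it was above 0 under either marker scaling (+0.03 and +0.02).

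In collagen IV, all 6 chains were lower in each Mgat1 cKO array than in any control array (20.1% of all genes were). Their differences were -0.35 to -0.20, with a median of -0.27. The median stayed below 0 when arrays were scaled to the germ cell markers (-0.13) or the somatic markers (-0.14). Of the 6, Col4a3 and Col4a4 fell (2.35% of all genes did). These 2 genes lie side by side in the genome and encode chains that join with alpha5 in 1 trimer. Col4a3 measured 7.02, 7.05 and 7.12 in control and 6.80, 6.72 and 6.63 in Mgat1 cKO (difference -0.35, SE 0.069, adjusted p = 0.019). Col4a4 measured 6.60, 6.56 and 6.64 in control and 6.28, 6.37 and 6.32 in Mgat1 cKO (difference -0.28, SE 0.061, adjusted p = 0.029). In both genes the gap between the lowest control array and the highest Mgat1 cKO array was wider than the range of either group. Neither passed under marker scaling, with adjusted p = 0.12 and 0.24 for the germ cell markers and 0.097 and 0.22 for the somatic markers.

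The partner of this pair in the trimer, the X-linked Col4a5, measured 5.91, 5.73 and 5.76 in control and 5.56, 5.57 and 5.46 in Mgat1 cKO, a difference of -0.27 (adjusted p = 0.064). Col4a6, its neighbour, measured 5.54, 5.61 and 5.67 in control and 5.49, 5.49 and 5.24 in Mgat1 cKO, a difference of -0.20 (adjusted p = 0.20). Col4a1 and Col4a2 encode the chains of the trimer found in nearly all basement membranes. Col4a1 measured 7.25, 7.21 and 7.24 in control and 7.08, 6.92 and 7.04 in Mgat1 cKO (difference -0.22, adjusted p = 0.089). Col4a2 measured 7.07, 7.15 and 6.95 in control and 6.72, 6.71 and 6.89 in Mgat1 cKO (difference -0.28, adjusted p = 0.076). None of these 4 chains passed the test, and the gap between the groups was narrow in Col4a6 and Col4a2. Without dim probe sets, Col4a1 (-0.31, adjusted p = 0.0044) and Col4a5 (-0.37, adjusted p = 0.025) passed, and Col4a2 passed with an intensity trend (adjusted p = 0.039). The difference of Col4a2 was as large as that of Col4a4, but its arrays were more widely spread (SE 0.080).

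**Figure D2:**
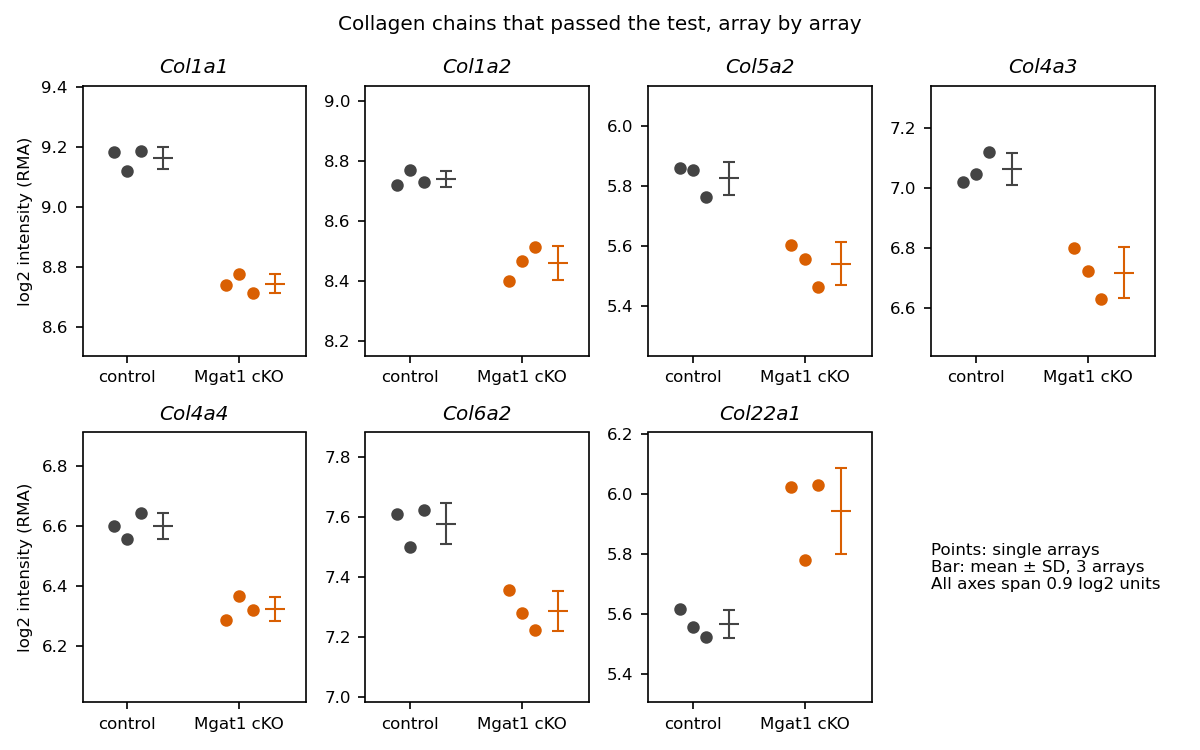
Log2 intensity (RMA) of the 7 chains that passed the test, with 1 point an array (control grey, Mgat1 cKO orange) and mean ± SD of 3 arrays beside them. All panels span the same number of log2 units, and in each chain the groups do not overlap: Col1a1 lies at 8.72 to 8.78 in Mgat1 cKO against 9.12 to 9.19 in control, and Col22a1 at 5.78 to 6.03 against 5.52 to 5.62.

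In collagen VI, which links cells and basement membranes to the surrounding fibres, 1 of 6 chains fell (2.35% of all genes did). Col6a2 measured 7.61, 7.50 and 7.63 in control and 7.36, 7.28 and 7.22 in Mgat1 cKO (difference -0.29, SE 0.068, adjusted p = 0.038). It did not pass when the arrays were scaled to the germ cell markers (-0.15, adjusted p = 0.23) or the somatic markers (-0.16, adjusted p = 0.21), nor in any fit with 1 array left out. Its neighbour Col6a1 measured 8.55, 8.58 and 8.65 in control and 8.33, 8.41 and 8.27 in Mgat1 cKO, a difference of -0.25 (adjusted p = 0.060) that did not pass, except with an intensity trend (adjusted p = 0.0096). Col6a1 and Col6a2 are the constant chains of the collagen VI trimer, and neither overlapped between genotypes. The chain that completes the usual trimer, Col6a3, measured 6.50, 6.43 and 6.35 in control and 6.40, 6.48 and 6.19 in Mgat1 cKO, with overlapping groups (difference -0.07, adjusted p = 0.67). Without dim probe sets Col6a3 passed, with a difference of -0.30 (adjusted p = 0.024). The other 3 chains, Col6a4, Col6a5 and Col6a6, differed by -0.14 to +0.03 with overlapping groups. The class median was -0.12, and +0.03 or +0.02 when the arrays were scaled to the germ cell or the somatic markers.

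The FACIT collagens, which sit on the surface of fibrils, held the only chain that rose, and none of them fell. The rise was 1 of 9 chains (11.1%, against 6.07% of all genes), and 2.35% of all genes fell. Col22a1, a chain known from tissue junctions such as that of muscle and tendon, measured 5.62, 5.56 and 5.52 in control and 6.02, 5.78 and 6.03 in Mgat1 cKO. Every Mgat1 cKO array was higher, the second by less than the other two, and the difference of +0.38 (SE 0.083, adjusted p = 0.030) was 1.30-fold. It passed under either marker scaling too (+0.52 and +0.51). Without 1 array it passed only when the second Mgat1 cKO array was the one left out (+0.46, adjusted p = 0.0073), and in the other 5 fits it gave +0.33 to +0.40 with adjusted p = 0.070 to 0.10. The other 8 FACIT chains differed by -0.14 (Col20a1, adjusted p = 0.34) to +0.05 (Col9a2) with overlapping groups, and the class median was -0.00.

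With all probe sets, no chain of the other classes passed the test in limma or by the analysis of variance of the methods, and only Col18a1 had an unadjusted p under 0.05. Of the 4 transmembrane collagens, which stay anchored in the cell membrane, Col13a1 had the largest negative difference at -0.17 (adjusted p = 0.34) and Col23a1 the only positive one at 0.00. The groups of Col25a1 did not overlap, with 5.86, 5.77 and 5.87 in control and 5.57, 5.75 and 5.70 in Mgat1 cKO (difference -0.16, adjusted p = 0.23). The 2 multiplexins lie at basement membranes and release endostatin-like fragments. Col18a1 measured 7.16, 7.21 and 7.25 in control and 7.15, 6.91 and 6.92 in Mgat1 cKO, with all Mgat1 cKO arrays lower but the first by little (difference -0.21, adjusted p = 0.16). Col15a1 measured 6.30, 6.24 and 6.28 in control and 6.12, 6.13 and 6.25 in Mgat1 cKO, with overlapping groups (difference -0.11, adjusted p = 0.36), but it passed without dim probe sets (-0.23, adjusted p = 0.032). The short-chain and other collagens ranged from -0.14 (Col28a1, adjusted p = 0.34) to +0.07 (Col10a1, a chain of growth plate cartilage, adjusted p = 0.76).

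The chains were also split at the median level of all genes, as a filter on dim genes and not as a comparison of levels. Of the 17 chains with a mean level above the median of all genes, 5 fell and none rose (2.94% and 6.46% of the genes above that level did so), and their median difference was -0.21, against -0.07 for those genes. Under marker scaling this median was -0.07 for the germ cell markers and -0.08 for the somatic markers. Of the 26 chains at lower levels, Col5a2 fell and Col22a1 rose, 3.85% each way (1.75% and 5.68% of the genes not above the median level did so). Their median was -0.10, against -0.03 for those genes.

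The probe sets of each chain showed how many of its exon level measurements shared the difference. All 26 probe sets of Col1a1 had a negative difference, and in 16 of them every Mgat1 cKO array was below every control array. For Col1a2 these numbers were 31 and 17 of 35 probe sets, for Col4a3 28 and 10 of 32, for Col4a4 26 and 6 of 33, for Col5a2 21 and 4 of 29 and for Col6a2 14 and 4 of 18. Over the 1226 collagen probe sets, 770 were negative, and 13.9% had every Mgat1 cKO array below every control array against 10.8% of all probe sets. Negative probe sets were not counted over the whole array, so the counts of negative ones have no such reference. Among all genes, 64.5% had a negative difference. Only 3 probe sets fell by their own test (0.245%, against 0.18% of all probe sets), with log2 differences of -0.79 in Col1a1, -1.28 in Col1a2 and -0.71 in Col6a3. The probe set in Col1a2 measured 7.14, 6.88 and 6.88 in control and 5.94, 5.42 and 5.70 in Mgat1 cKO (adjusted p = 0.018), a wider gap than that of the whole gene.

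Col22a1 was uneven among its probe sets. Of its 36 probe sets, 23 had a positive difference and 8 had every Mgat1 cKO array above every control array, while 13 were negative and in none of these did the groups separate. Every Mgat1 cKO array was above every control array in 3.92% of the collagen probe sets and in 8.66% of all probe sets. The 1 collagen probe set that rose by its own test (0.0816%, against 1.87% of all probe sets) was in this gene. It measured 6.91, 7.25 and 7.33 in control and 8.88, 9.37 and 8.95 in Mgat1 cKO, a difference of +1.90 (adjusted p = 0.0055). The differences of 2 more of its probe sets were close to that size, at +1.88 (adjusted p = 0.0503) and +1.76 (adjusted p = 0.066), while the lowest was -0.62. The gene mean of +0.38 thus averaged probe sets that differed in size and sign, and the positions of the probe sets in the transcript are not given in the sources used here.

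**Figure D3:**
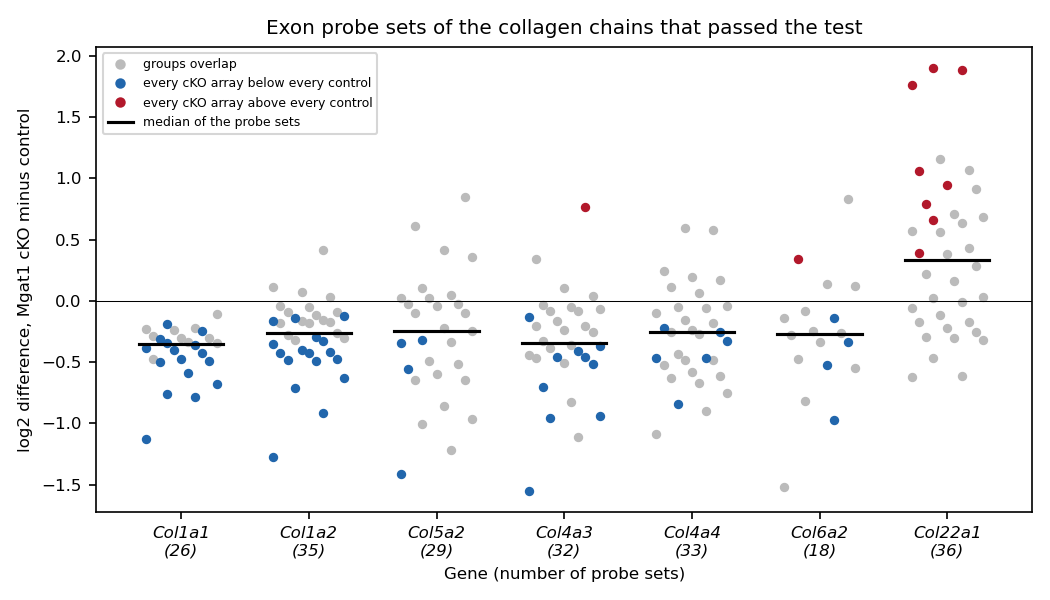
Log2 difference (Mgat1 cKO minus control) of each exon probe set of the 7 chains that passed the test, with the number of probe sets in parentheses and a bar at their median. Coloured points are probe sets whose groups do not overlap: all 26 points of Col1a1 lie below 0, and those of Col22a1 reach from -0.62 to +1.90.

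Promoter sequences were available from RefSeq (GRCm38.p6) for 35 of the 43 chains and for 3 of the 7 that passed the test, Col1a2, Col4a4 and Col6a2. The 250 bases before the start of Col1a2 (chr6:4505368-4505617, plus strand) and Col6a2 (chr10:76623631-76623880, minus strand) are shown because these 2 chains fell and their windows do not run into a neighbouring collagen gene. Capitals mark matches, on either strand, to CCAAT, the letters of a common promoter box, or to TATAAA as in a typical core promoter element of that kind, or to GGGCGG as in the GC box, and the matches do not overlap.
Col1a2: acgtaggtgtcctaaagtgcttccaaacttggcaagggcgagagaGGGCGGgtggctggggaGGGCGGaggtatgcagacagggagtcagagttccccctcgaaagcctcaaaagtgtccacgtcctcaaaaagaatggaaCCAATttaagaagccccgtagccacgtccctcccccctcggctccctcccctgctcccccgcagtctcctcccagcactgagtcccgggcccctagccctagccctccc
Col6a2: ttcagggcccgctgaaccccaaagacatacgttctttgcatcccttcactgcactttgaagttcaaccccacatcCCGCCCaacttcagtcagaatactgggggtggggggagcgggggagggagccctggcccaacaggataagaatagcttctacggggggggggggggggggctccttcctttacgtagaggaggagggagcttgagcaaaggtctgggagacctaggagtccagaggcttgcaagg
Col1a2 held CCAAT 109 bases before its start and GGGCGG at 205 and 188 bases, and Col6a2 held GGGCGG on the opposite strand at 175 bases. TATAAA was in neither window. The window of Col4a4, the third chain that fell with a promoter sequence, is not shown and held none of the 3 motifs. Over windows of the same length before all 32851 promoters of the table, CCAAT was found in 33.8%, TATAAA in 12.4% and GGGCGG in 32.7%. Among the 35 collagen chains, taken at their outermost start, these numbers were 34.3%, 14.3% and 60%.

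Genes that make, process and bind collagen were counted beside the chains. Of 62 such genes, 4 fell (6.45%, against 2.35% of all genes) and 2 rose (3.23%, against 6.07%), with a median difference of -0.13, and +0.02 or +0.01 under the scaling to germ cell or somatic markers. Among the 18 genes of hydroxylation, glycosylation and folding, only Crtap fell (-0.24, adjusted p = 0.040), which encodes a partner of the prolyl 3-hydroxylase. The chain-modifying lysyl hydroxylase Plod1 was close to the threshold at -0.29 (adjusted p = 0.0502) and did not pass. Among the 14 genes of processing and cross-linking, the transglutaminase gene Tgm2 fell (-0.35, adjusted p = 0.019) and Pcolce2, an enhancer of procollagen cleavage, rose (+0.34, adjusted p = 0.026).

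Among binding partners and receptors, 2 genes fell and 1 rose (2.35% and 6.07% of all genes did so). Of the 9 proteoglycans and matrix partners, 8 had every Mgat1 cKO array below every control array (20.1% of all genes did), but only Hspg2 fell (-0.28, adjusted p = 0.022), which encodes the basement membrane proteoglycan perlecan. The list's median was -0.18, and it stayed below 0 under the scaling to germ cell markers (-0.03) and somatic markers (-0.04). The exception was the basement membrane linker Nid2, which was higher in every Mgat1 cKO array (+0.23, adjusted p = 0.10). Of the 10 collagen receptors, the integrin genes Itga2 and Itga1 moved in opposite directions. Itga2 measured 6.31, 6.35 and 6.26 in control and 5.84, 5.81 and 5.97 in Mgat1 cKO (-0.44, adjusted p = 0.0055). Itga1 measured 6.96, 7.01 and 6.86 in control and 7.23, 7.42 and 7.48 in Mgat1 cKO (+0.43, adjusted p = 0.017). Their groups did not overlap, and both encode alpha subunits that bind collagen together with the beta1 subunit, whose gene Itgb1 differed by -0.11 (adjusted p = 0.37). The list of 11 genes of collagen breakdown also holds the inhibitor genes Timp1, Timp2 and Timp3. None of the 11 passed the test in limma or by the analysis of variance, although 2 (Mmp2 and Timp1) had an unadjusted p under 0.05. The largest difference was that of the gelatinase gene Mmp2 (-0.28, adjusted p = 0.13).

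**Figure D4:**
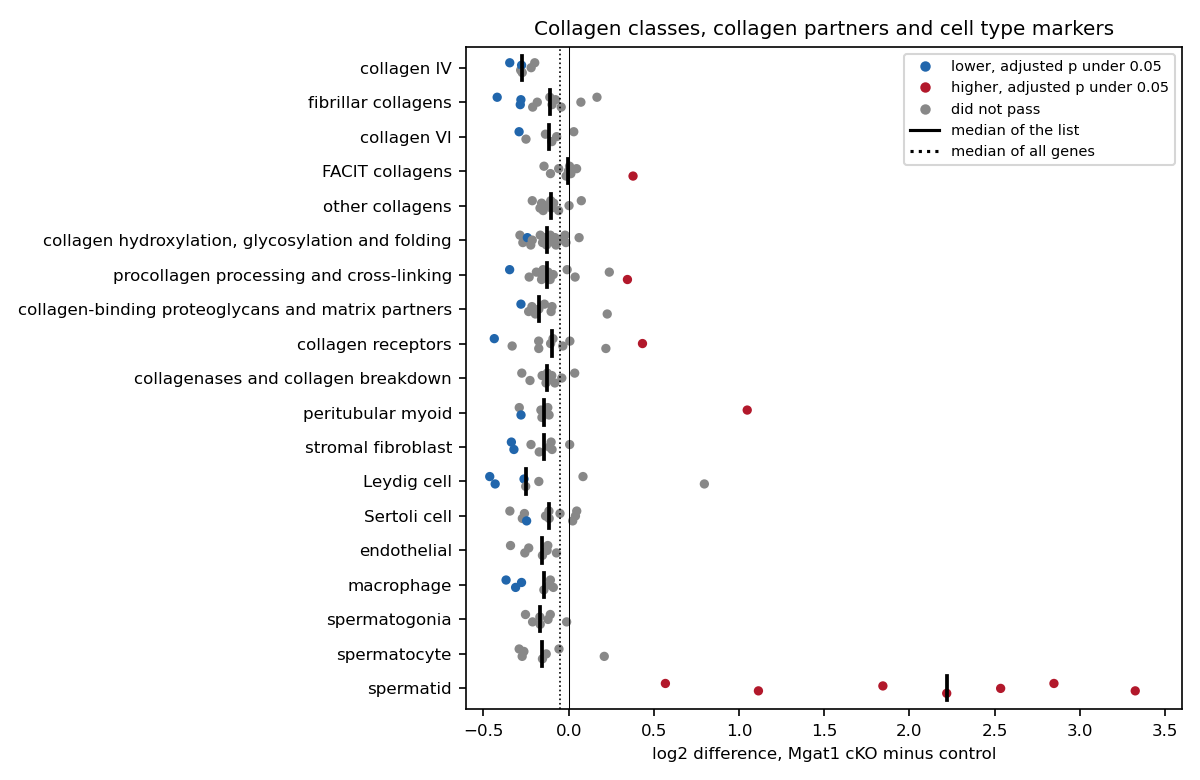
Log2 difference (Mgat1 cKO minus control) of the genes in each collagen class, collagen partner list and cell type marker list, with a bar at the list's median and a dotted line at the median of all genes (-0.05). The collagen IV median (-0.27) stands left of the medians of the other collagen classes, near that of the Leydig markers (-0.25), and the spermatid markers lie at the right (median +2.22). Scaling the arrays to the germ cell markers would move all points right by 0.14, which puts the medians of the fibrillar, collagen VI and FACIT classes above 0.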

How the data were processed

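RNA of 23 dpp testis germ cells was hybridized to 6 Mouse Gene 2.0 ST arrays, 3 of control and 3 of Mgat1 cKO, and the 3 arrays of a genotype were aliquots of 1 pool of 6 mice. The deposited values are log2 RMA intensities of exon level probe sets, background-corrected, quantile-normalized and summarized by the authors in Affymetrix Expression Console (version not given in the sources used here). Quantile normalization gives all arrays 1 distribution, so a strong rise of many genes can lower the values of the rest. Whether it did so in these arrays was not tested.

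The annotation names 1 gene for 233753 of the 269751 probe sets, more than 1 for 5139 and no gene for 30859. Only the first kind was used, averaged to 23152 genes (median 8 probe sets a gene). All 43 collagen symbols are current in the RefSeq gene table (GRCm38.p6), used for names and neighbouring genes only, since the build behind the arrays is not given in the sources used here. Genes and probe sets were tested with limma 3.58.1 in R 4.3.3 (lmFit, eBayes without trend, no block), adjusted by Benjamini-Hochberg over the whole table at 0.05. The one-way analysis of variance of the study's methods, other summaries, scalings and filters, and fits with 1 array left out were run as alternatives. The fit was tested on simulated data. Array number limits the precision between aliquots, and with 1 pool for each genotype the spread between mice was not measured.

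The collagen chains, the lists and the tests were chosen with earlier results of these data known. Named were all chains that passed, the chains with the largest rise and fall of each class, 14 fixed chains of collagens I, III, IV, VI, XV and XVIII, and of other lists each gene that passed or else the largest difference. A few more (Col11a1, Col27a1, Col6a4, Col6a6, Col9a2, Col25a1, Plod1, Nid2, Itgb1, Timp1, Timp2, Timp3) were named after their values were seen. Figures were drawn with matplotlib 3.10.9.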

Additional observations from a re-analysis of the deposited data

How the results depend on the processing

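The count of collagen chains that passed (7, of which 6 fell) depended on the setting. It was 9 with an intensity trend in limma (6 shared with the 7), 12 of 40 when dim probe sets (mean below the median of all probe sets) were left out (11 lower, 6 shared), 3 by the analysis of variance of the methods, 0 when the median of a gene's probe sets was taken in place of their mean (12 at an unadjusted p under 0.05), and 7 under the remaining planned scalings and symbol rules. It was 0 with a further limit of 1.5-fold or 2-fold. With any 1 of the 6 arrays left out it was 1 to 2. Calls over all genes tested in a setting moved too, from 543 lower and 1405 higher in the main fit. They were 1385 and 1667 with the trend, 823 and 1160 without dim probe sets and 390 and 1061 by the analysis of variance. With medians of probe sets they were 135 and 991, and with 1 array left out 181 to 324 and 1148 to 1228. After the data were seen, scaling to the germ cell or the somatic markers was added. Either gave 3 chains (Col1a1 lower, Col22a1 and Col2a1 higher) and moved the median of all genes from -0.05 to 0.09 or 0.08, with 2531 genes higher and 87 lower or 2377 and 87, against 1405 and 543. The median of the chains (-0.11) was 0.036 and 0.027 under these scalings, 0.05 below that of all genes in each case, and -0.15 without dim probe sets, -0.16 with medians of probe sets and -0.13 to -0.10 with 1 array left out.

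The array numbers did not pair the samples (correlation of deviations -0.02, -0.06 and -0.02), and the replicate block left 1 chain (Col1a1), 1 collagen probe set in place of 4, and 2 partner genes in place of 6. Over all genes, the block left 208 lower and 1224 higher. Without dim probe sets, 10 collagen probe sets passed, and with 1 array left out 1 to 6. The alternative that took the difference between group medians kept the p-values of the main fit. It could therefore change a direction but not a call, and its count of 7 chains is that of the main fit. With it included, of 390 results for single chains, 304 kept their direction and side of the threshold, 62 lost the call, 10 gained one and 14 changed direction, all in chains that had not passed. Those were Col6a5 (-0.10 without dim probe sets, -0.085 to 0.15 with 1 array left out), Col23a1 (-0.016 by medians, -0.21 without dim probe sets, -0.10 to 0.092 with 1 array left out), Col10a1 (-0.011 to 0.21 with 1 array left out), Col28a1 (0.0031 for germ cell markers), Col6a3 (0.072 and 0.063 under marker scaling, -0.13 to 0.014 with 1 array left out) and Col15a1 (0.038 and 0.029 under marker scaling). Col1a1 lost its call only with the median of its probe sets (-0.36, adjusted p = 0.13), whereas the other 6 chains each lost theirs in 5 or 6 of the 6 fits with 1 array left out. Calls were gained by Col2a1 under both marker scalings, by Col3a1, Col4a2 and Col6a1 with an intensity trend, and by Col3a1, Col4a1, Col4a5, Col6a3 (-0.30) and Col15a1 (-0.23) without dim probe sets. The cause of these changes was not tested.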
